A study of Canis lupus familiaris with 21 samples.

Results

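The 10 genes followed here encode the core of the transforming growth factor beta (TGF-beta) pathway and were chosen by name: the ligands TGFB1, TGFB2 and TGFB3, the receptors TGFBR1, TGFBR2 and TGFBR3, and the intracellular signal carriers SMAD2, SMAD3, SMAD4 and SMAD7. Of these, 8 had 1 entry each among the 21399 genes of the count tables, while SMAD3 and SMAD7 were not analysed here. Their levels were read in 21 formalin-fixed, paraffin-embedded (FFPE) samples of canine cutaneous histiocytoma (CCH), a skin tumor of Langerhans cell origin in mostly young dogs that often regresses while lymphocytes enter it. RNA was sequenced from the 3′ ends of transcripts (QuantSeq), so that the values of a gene can be compared between samples, but no gene is ranked above another by its level.

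The tumors belonged to pet dogs of many breeds, no treatment is named in the labels, and the groups followed histologic stages of regression. Sample group 1 held 5 stage 1 tumors (dogs of 0.5 to 5.0 years, with 1 age not given), and sample group 2a held the tumor cell-enriched areas of 5 stage 2 tumors (0.6 to 3.0 years). Sample group 2b held 6 samples of lymphocyte-enriched areas of stage 2 tumors (0.3 to 6.0 years by the labels), of which 2 came from single dogs and 4 were pools of 3 to 4 dogs, 17 dogs in all. For the pool labelled from 0.3 years the paper's sample list gives 0.5 as the lowest age. It gives no age for 1 dog of another pool. Sample group 3 held 5 stage 3 tumors, labelled lymphocyte-enriched (1.5 to 9.0 years). In groups 2a and 2b the areas were chosen under the microscope and punched out, so both remained mixtures of cells. In such bulk samples, fewer cells of a type and less RNA per cell cannot be told apart.

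TGF-beta ligands are secreted in a latent form and held in the matrix or on cell surfaces until they are released. The free ligand binds the type II receptor TGFBR2, which activates the type I receptor TGFBR1. That receptor phosphorylates SMAD2 and SMAD3, which enter the nucleus with the shared partner SMAD4, and SMAD7 is induced as an inhibitor of the same step. TGFBR3, also called betaglycan, is a co-receptor that presents ligand, and TGFB2 in particular, to TGFBR2. In the skin, TGF-beta is needed for the development and retention of Langerhans cells, and in lymphocytes it restrains activation and promotes regulatory and tissue-resident states.

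Total counts per sample ran from 2113393 to 3559404, with a median of 2514859. Values below are normalized counts, which are the read counts of a gene after scaling for the depth of each sample. Summed levels of 7 T cell markers were 42.5 to 1561 in group 1 and 379 to 1220 in group 2a, against 2211 to 3291 in group 2b and 2387 to 3610 in group 3. The 5 B cell markers summed to at most 73.0 in group 1 and 37.4 in group 2a, to 523 to 1221 in group 2b and to 85.9 to 1038 in group 3. The B cell marker MS4A1 was at 0 in every sample of groups 1 and 2a, with means of 15.5 in group 2b and 4.68 in group 3. The T cell marker CD4 was also at 0 in groups 1 and 2a, but it was near 0 in groups 2b and 3 as well (means 0.65 and 0.20). The sums of 6 histiocytic markers overlapped between all groups, from 2487 to 5688 over the 21 samples. ITGB2, an integrin chain of leukocytes in general, made up most of that sum, with group means from 2347 to 2594. CD1A6, which belongs to the CD1 family that marks Langerhans cells, was at 0 in all samples of groups 1 and 3. It was near 0 in groups 2a and 2b as well (means 0.70 and 0.85).

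The members differed in how far their group means lay apart. The ratio of the highest to the lowest group mean was 6.21 for TGFB2, 4.52 for TGFB3, 3.10 for TGFBR3 and 2.42 for TGFBR1. It was 1.84 for TGFBR2, 1.78 for TGFB1, 1.61 for SMAD4 and 1.36 for SMAD2. When the 4 groups were put in order of their means for each gene, the sample ranges of neighbours in that order overlapped in every case except TGFB2 in groups 1 and 2a. The plot of normalized counts by sample shows all 8 genes.

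**Figure D1:**
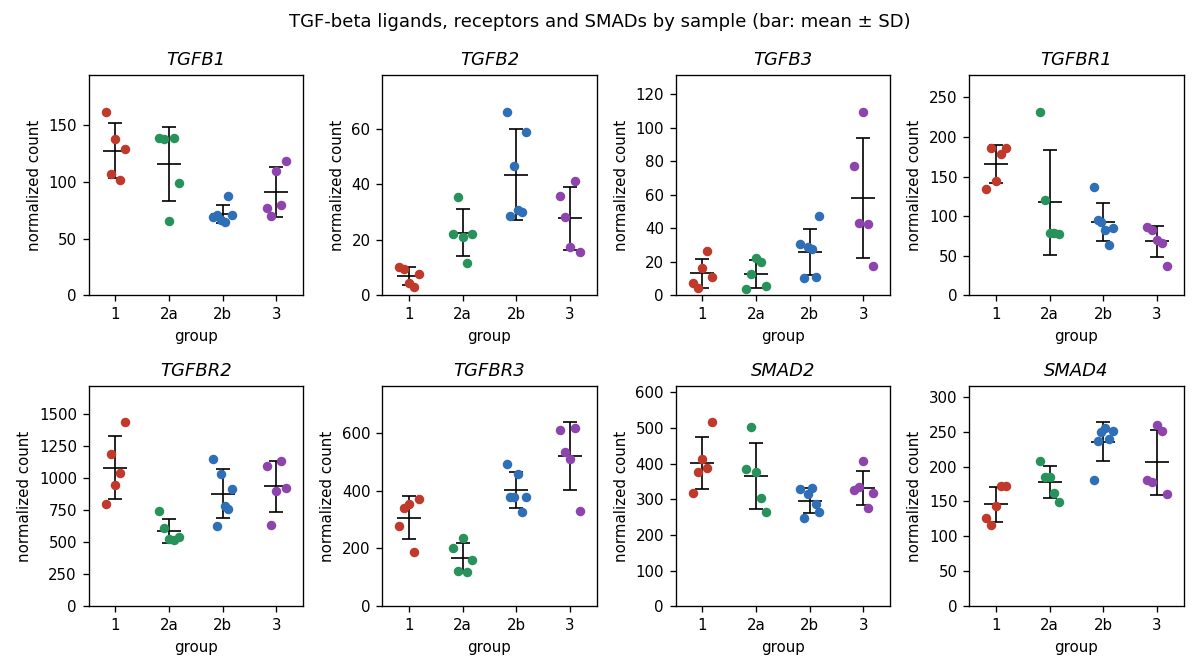
Normalized counts (vertical axes, each starting at 0 with its own scale) of the 8 measured TGF-beta genes in sample groups 1, 2a, 2b and 3 (horizontal axes), with 1 point per sample and bars for the mean and SD of 5 samples, or 6 in group 2b. All 6 points of group 2b lie above all 5 of group 2a for TGFBR3, and all 5 points of group 2a lie above all 5 of group 1 for TGFB2.

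TGFB1, the ligand that is made by most immune and stromal cells, was present in every sample. Its normalized counts were 162, 107, 138, 102 and 129 in group 1 and 138, 138, 65.5, 138 and 98.8 in group 2a. In group 2b the lowest sample had 64.7, the median was 69.9 and the highest had 87.4, and in group 3 the values were 76.9, 69.8, 110, 79.6 and 118. The lymphocyte-enriched samples of stage 2 were thus the tightest set, and all but 1 of the tumor cell-enriched samples of stage 2, replicate 3, lay above them. Group 2b alone holds pools, 4 of its 6 samples with 3 to 4 dogs each. The part of pooling in its small spread was not tested.

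TGFB2, best known from epithelial and mesenchymal tissue, was close to the limit of detection in the earliest stage. In group 1 it had normalized counts of 10.4, 9.4, 4.6, 3.1 and 7.6, which were raw counts of 4 to 11, and only 2 of these 5 samples reached a count of 10. Values of 22.3, 35.4, 21.1, 11.7 and 22.3 were found in group 2a. Group 2b ranged from 28.7 over a median of 38.7 to 66.3, and group 3 had 36.0, 28.3, 17.5, 41.3 and 15.7. Every sample of the other groups was therefore above every sample of group 1.

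TGFB3, a ligand of mesenchymal and platelet origin among others, had the widest scatter. Normalized counts of 7.6, 4.7, 16.4, 26.8 and 10.9 in group 1 and of 3.7, 12.5, 22.2, 19.9 and 5.8 in group 2a covered the same range. Group 2b lay between 10.5 and 47.2 with a median of 28.2, and group 3 had 76.9, 43.4, 110, 42.3 and 17.8. The 2 highest values of all 21 samples came from group 3 replicates 1 and 3, but replicate 5 of that group was lower than 4 of the 6 samples of group 2b.

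Because the summed counts of the 3 ligands overlapped between all groups (121 to 180, 109 to 185, 110 to 177 and 141 to 237 for groups 1, 2a, 2b and 3), their composition was also described, without a test. Each share is read between groups only and not against the share of another ligand. TGFB1 made up 77.2% to 90.0% of the summed ligand count in group 1 and 60.2% to 84.2% in group 2a. In group 2b its share was 40.0% to 68.0%, and in group 3 it was 40.5% to 77.9%. The share of TGFB2 was smallest in group 1 (median 5.19%) and largest in group 2b (29.5%), with 17.6% in group 2a and 18.9% in group 3. The median share of TGFB3 was 7.41% in group 1 and 6.74% in group 2a, against 19.5% in group 2b and 30.7% in group 3. In 4 of 5 samples of group 3 and 4 of 6 of group 2b, TGFB1 held less than 60.2%, the lowest share seen in a tumor cell-enriched sample.

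**Figure D2:**
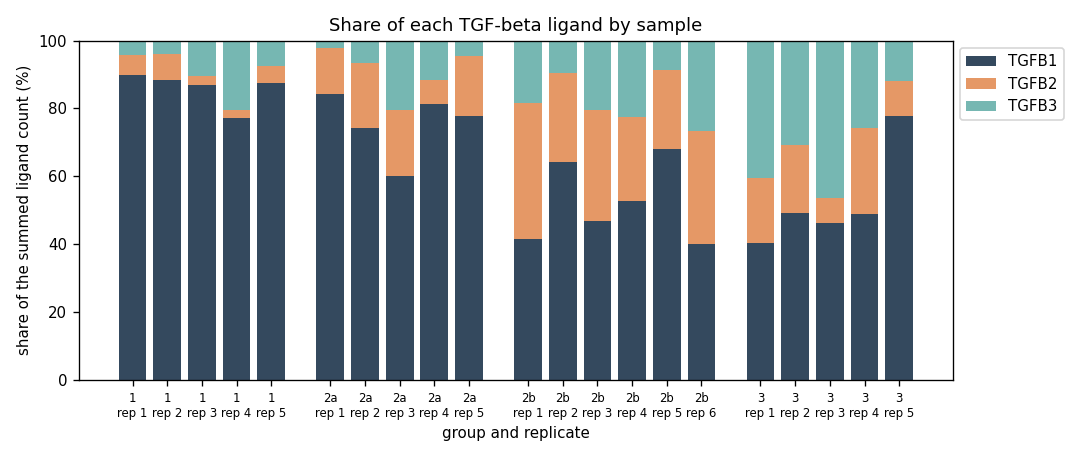
Share of TGFB1, TGFB2 and TGFB3 in the summed normalized count of these 3 ligands (vertical axis, %), with 1 stacked bar for each of the 21 samples, ordered by group and replicate (horizontal axis). TGFB1 takes 77.2% or more of each bar in group 1 and a median of 49.6% in group 2b.

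TGFBR1, the type I receptor kinase, had normalized counts of 134, 186, 145, 178 and 186 in group 1. In group 2a it had 232, 121, 78.9, 78.4 and 77.5, so that replicate 1 stood above all samples of group 1 while the other 4 stood below them. Group 2b ranged from 63.3 over a median of 88.7 to 136, and group 3 had 85.9, 83.0, 69.8, 66.5 and 36.7. All 5 samples of group 3 were under the lowest sample of group 1.

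TGFBR2, the ligand-binding type II receptor, was lowest in the tumor cell-enriched areas of stage 2. Its normalized counts were 800, 1192, 949, 1043 and 1437 in group 1, and 742, 615, 524, 518 and 541 in group 2a. In group 2b it ranged from 629 over a median of 853 to 1148, and in group 3 the values were 1098, 632, 902, 1139 and 921. Group 2a lay below all samples of group 1, and 5 of 6 samples of group 2b and 4 of 5 of group 3 lay above all of group 2a.

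TGFBR3 had normalized counts of 279, 340, 353, 188 and 371 in group 1 and of 201, 123, 237, 118 and 160 in group 2a. Group 2b ranged from 325 over a median of 379 to 492, and group 3 had 610, 533, 508, 619 and 329. The tumor cell-enriched samples of stage 2 were the lowest set, below all 11 lymphocyte-enriched samples, and 4 of 5 samples of group 3 were above all other samples of the study.

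SMAD2, which carries the signal of the activated receptor, had the smallest spread between groups, with means of 402 ± 72.5 (SD, n = 5) and 366 ± 91.5 (n = 5) for groups 1 and 2a, and of 296 ± 35.5 (n = 6) and 332 ± 47.9 (n = 5) for groups 2b and 3. SMAD4, the partner shared with the bone morphogenetic protein (BMP) branch, had 127, 117, 144, 172 and 172 normalized counts in group 1 and 208, 186, 184, 161 and 149 in group 2a. In group 2b it ranged from 180 over a median of 244 to 256, and in group 3 the values were 181, 177, 260, 251 and 160. Here 5 of 6 samples of group 2b lay above all of group 2a, the exception being replicate 1.

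The area comparison within stage 2, group 2b against group 2a, asked how these genes differed between lymphocyte-enriched and tumor cell-enriched parts of tumors of the same stage. TGFBR3 and TGFBR2 were higher and TGFB1 was lower in the lymphocyte-enriched areas, and the other 5 members did not pass the test. TGFBR3 rose 2.39-fold, with a log2 fold change of 1.26 ± 0.19 (SE) and an adjusted p of 0.000737 (edgeR quasi-likelihood test, Benjamini-Hochberg adjustment over all 11545 genes tested), and it was the only member that also reached the log2 fold change of 1 used in the study, as 9.55% of all genes did. TGFBR2 rose 1.49-fold (log2 fold change 0.58 ± 0.17, adjusted p = 0.0291). TGFB1 was 1.62-fold lower (log2 fold change -0.70 ± 0.20, adjusted p = 0.0255). These 3 of 8 members stand beside a background of 16.5% of all genes called, 8.9% higher and 7.64% lower.

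Of the members that missed the threshold, TGFB2 had a log2 fold change of 0.94 ± 0.33 (adjusted p = 0.0637) and SMAD4 one of 0.40 ± 0.14 (adjusted p = 0.0586). DESeq2 called both in addition to the other 3, beside 2377 of all 11545 genes. TGFB3 had 1.04 ± 0.51 (adjusted p = 0.192). The values of TGFBR1 (-0.35 ± 0.29, adjusted p = 0.464) and SMAD2 (-0.31 ± 0.16, adjusted p = 0.227) had overlapping samples, and without group 2a replicate 1 that of TGFBR1 was 0.0465 (adjusted p = 0.925). An unadjusted p under 0.05 was found for 5 of the 8 members, against 30% of all genes. Only TGFBR3 had no overlap between the groups, as was true of 10.5% of all genes, and the median log2 fold change was 0.49 over the 8 members and -0.015 over all genes tested.

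TGFBR3 was called in all 11 fits that left out 1 sample, with log2 fold changes from 1.15 to 1.41, and in the 8 other alternatives. The calls of TGFB1 and TGFBR2 were less firm, since TGFB1 was called in 5 and TGFBR2 in 4 of the 11 fits, with adjusted p of up to 0.0694 and 0.0686. TGFB1 lost its call without group 2a replicate 1, 2 or 4 or group 2b replicate 3, 4 or 6, and TGFBR2 lost it without group 2a replicate 2, 3, 4 or 5 or group 2b replicate 1, 3 or 6. The T cell and B cell markers also differed between groups 2b and 2a. Higher in group 2b were 5 of 6 tested T cell markers and 5 of 5 B cell markers, while 0 of 6 fibroblast markers passed. CD3D was higher by 2.11 ± 0.28 (SE) on the log2 scale. MS4A1, CD79A and CD79B had means of 0, 2.82 and 5.97 in group 2a and passed the count filter through group 2b. That favors such a rise, and the areas were chosen for their lymphocytes, so these counts are descriptions. Of 5 tested histiocytic markers 0 passed, with CDH1 at -1.05 and CD86 at -0.47 on the log2 scale (both with an unadjusted p under 0.05). Of 5 endothelial markers CLDN5 was higher (1.16 on the log2 scale, adjusted p = 0.0361), and the sums of the 5 overlapped at 450 to 891 in group 2a and 419 to 873 in group 2b. Over the 10 samples of groups 1 and 2a, Spearman's rho with the T cell sum was -0.345 for TGFBR3, -0.2 for TGFBR2 and -0.382 for TGFB1. Over the 11 samples of groups 2b and 3 it was 0.345, 0.145 and 0.00909. With the B cell sum these 3 members had -0.406 to -0.236 in the former and -0.373 to -0.0455 in the latter. The part of the cell mixture in the receptor and ligand values was not tested.

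**Figure D3:**
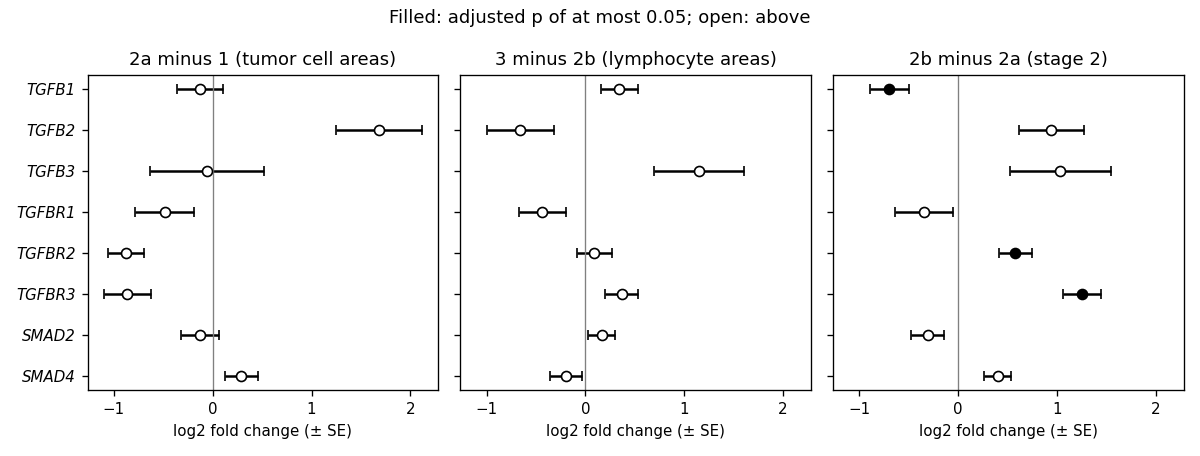
Log2 fold changes (horizontal axes, shared scale) with their SE for the 8 measured members in 3 comparisons, from edgeR fits of 5 or 6 samples per group. Filled points have an adjusted p of at most 0.05 and appear in the area comparison alone, for TGFB1 below 0 and for TGFBR2 and TGFBR3 above 0.

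Between stages in the tumor cell-enriched areas, group 2a against group 1, TGFB2 was at a higher and TGFBR2 at a lower level in stage 2 with no sample in common, but neither passed the test over all genes. TGFB2 had means of 22.6 ± 8.46 (SD, n = 5) in group 2a and 7.02 ± 3.10 (n = 5) in group 1, with a log2 fold change of 1.68 ± 0.44 (SE) and an adjusted p of 0.0863 (edgeR). It entered the test through its counts in group 2a, as most of group 1 was below a count of 10. TGFBR2 had means of 588 ± 94.4 and 1084 ± 243, with a log2 fold change of -0.88 ± 0.18 and an adjusted p of 0.0501. TGFBR3 had means of 168 ± 51.0 and 306 ± 74.7, with a log2 fold change of -0.86 ± 0.24 and an adjusted p of 0.100.

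In this comparison 0 of 8 members were called, against 0.527% of the 11200 genes tested. An unadjusted p under 0.05 was found for TGFBR2 and TGFBR3, against 17.9% of all genes. DESeq2 called both, beside 632 of the 11200 genes. TGFBR2 had no overlap between the groups, as was true of 5.65% of all genes. TGFB2 had an unadjusted p under 0.05, a DESeq2 call and no overlap as well. Its way past the count filter rested on group 2a, where it was high, which favors such a difference, so these are descriptions. The remaining members had adjusted p of 0.381 or more, with log2 fold changes of -0.49 ± 0.30 for TGFBR1 and 0.29 ± 0.16 for SMAD4, and of between -0.13 and -0.06 for TGFB1, TGFB3 and SMAD2. Without group 2a replicate 1, TGFBR1 had a log2 fold change of -0.89 (adjusted p = 0.0713). The median was -0.13 over the members and -0.015 over all genes.

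RNA integrity moved with the stage. DV200, the percentage of RNA fragments above a set length, was 68.5 ± 2.46 (SD) in group 1 and 73.7 ± 2.69 in group 2a. With DV200 as a covariate in the edgeR fit, the adjusted p of TGFBR2 was 0.533 and that of TGFB2 and TGFBR3 was 0.482. The log2 fold changes were -0.70, 2.06 and -1.19. In that fit 0 of the 11200 genes passed, and 3 of the 8 members and 976 of all genes had an unadjusted p under 0.05. The 5 keratinocyte markers also differed, with sums of 648 to 10988 in group 1 and 214 to 2690 in group 2a and a median log2 fold change of -2.37 over the 4 tested, of which 0 passed. The fibroblast sums ran from 6224 to 50422 and from 9644 to 24615. Of 5 tested histiocytic markers 0 passed, with LYZ at 3.08, CDH1 at -1.20 and AIF1 at 0.72 on the log2 scale (each with an unadjusted p under 0.05). LYZ ran from 1.87 to 44.4 in group 1 and from 18.7 to 401 in group 2a. It thus passed the count filter through group 2a, which favors such a difference, so its values are descriptions. Whether these values have a part in the levels of TGFB2, TGFBR2 and TGFBR3 was not tested beyond the DV200 fit.

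Between stages in the lymphocyte-enriched areas, group 3 against group 2b, TGFB3 and TGFBR3 had the smallest p of the members, and neither passed. TGFB3 had means of 58.0 ± 35.7 (SD, n = 5) and 26.0 ± 13.8 (n = 6), with a log2 fold change of 1.15 ± 0.45 and an adjusted p of 0.303. TGFBR3 had means of 520 ± 117 and 402 ± 61.4, with a log2 fold change of 0.37 ± 0.17 and an adjusted p of 0.363, and 4 of 5 samples of group 3 exceeded all of group 2b. TGFB2 had a log2 fold change of -0.66 ± 0.34 (adjusted p = 0.427), TGFBR1 one of -0.44 ± 0.24 (adjusted p = 0.462) and TGFB1 one of 0.34 ± 0.19 (adjusted p = 0.457). TGFBR2, SMAD2 and SMAD4 were closer to 0, at 0.09 ± 0.18, 0.16 ± 0.14 and -0.19 ± 0.16.

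Here edgeR called 0 of 8 members, against 0.111% of the 11685 genes tested, and DESeq2 also called 0. Both TGFB3 and TGFBR3 had an unadjusted p under 0.05, as did 13.1% of all genes. The groups overlapped for every member, whereas 2.11% of all genes had no overlap. The B cell markers had a median log2 fold change of -1.45 and the keratinocyte markers one of 2.01, with 0 genes of either list past the test. The medians of the T cell, fibroblast and endothelial markers were 0.29, 0.17 and 0.31, also with 0 past the test. Of 5 tested histiocytic markers 0 passed, with LYZ at -3.08 and CDH1 at 1.45 (both with an unadjusted p under 0.05). LYZ ran from 0 to 59.4 in group 3 and from 52.1 to 412 in group 2b. It thus passed the count filter through group 2b, so its values are descriptions.

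TGFB3 and TGFBR3 went with the endothelial marker sum among the lymphocyte-enriched samples. Over the 11 samples of groups 2b and 3, Spearman's rho with the sum of PECAM1, VWF, KDR, EMCN and CLDN5 was 0.800 for TGFBR3 and 0.791 for TGFB3. Over the 10 samples of groups 1 and 2a it was 0.285 and 0.127. The same points share their libraries and, in each set, 2 stages, and the endothelial sums were 440 to 996 in group 3 against 419 to 873 in group 2b. In group 3 against group 2b, VWF had a log2 fold change of 0.91 (adjusted p = 0.109, edgeR). The other markers of the sum were at 0.50 (EMCN), 0.31 (CLDN5), -0.12 (KDR) and -0.20 (PECAM1). The fibroblast marker sum had a rho of 0.709 with TGFBR3 in the lymphocyte-enriched and 0.394 in the tumor cell-enriched samples. The endothelial values of 0.800 and 0.791 were the highest rho of any member with any marker sum in the lymphocyte-enriched samples, so they were picked from many. These correlations are descriptions, and what the endothelial cells contribute to either gene was not tested.

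**Figure D4:**
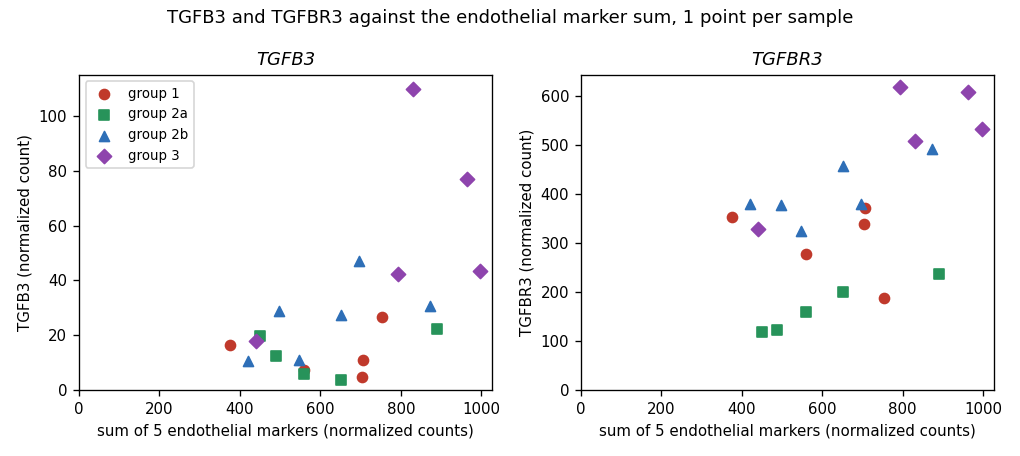
Normalized counts of TGFB3 and TGFBR3 (vertical axes) against the summed normalized count of 5 endothelial markers (horizontal axes), with 1 point per sample and a color and marker shape per group. In the lymphocyte-enriched groups 2b and 3 the points lie higher toward the right (rho of 0.791 and 0.800, n = 11), while the group 3 sample with the lowest endothelial sum, 440, has the lowest TGFB3 and TGFBR3 of its group.

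The receptors were also set against each other within the tumor cell-enriched and the lymphocyte-enriched samples, without a test of the difference. TGFBR1 and TGFBR2 had a rho of 0.77 over the 10 samples of the former and of 0.145 over the 11 of the latter, and TGFBR2 and TGFBR3 had 0.745 and 0.345. The log2 ratio of TGFBR2 to TGFBR1, read between groups only, had medians of 2.68 (2.55 to 2.95) and 2.73 (1.68 to 2.80) for groups 1 and 2a, and of 3.34 (2.73 to 3.59) and 3.69 (2.93 to 4.65) for groups 2b and 3, so that groups 2a and 2b overlapped. TGFB2 and TGFBR2 had opposite signs, with a rho of -0.697 in the tumor cell-enriched and 0.600 in the lymphocyte-enriched samples. Each set mixes 2 stages whose levels differ.

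The genes whose pattern over the 21 samples was most like that of a member, among 11486 genes with a mean normalized count of at least 10, were COPG2 for TGFB1 (rho = 0.891), SAT1 for TGFB2 (0.829), IL4I1 for TGFB3 (0.871) and CLNS1A for TGFBR1 (0.891). For TGFBR2 it was C15H1orf122 (0.861), for TGFBR3 PI4K2A (0.845), for SMAD2 EIF1 (0.814) and for SMAD4 USP13 (0.864). Each gene was picked for its rho over these same samples, so its values within an area are descriptions and no check. For TGFBR1 and CLNS1A they were 0.794 in the tumor cell-enriched and 0.864 in the lymphocyte-enriched samples. For TGFBR3 and PI4K2A they were 0.321 and 0.764. Next in order came DUSP22 and YIPF1 for TGFB1, LOC119871942 and TRERF1 for TGFB2, LOC111097154 and MPZL3 for TGFB3, and TXNDC12 and DR1 for TGFBR1. WDR45B and KIAA1191 followed for TGFBR2, RCAN1 and FSCN1 for TGFBR3, PHETA2 and PTPRO for SMAD2, and KDM5A and SCAF8 for SMAD4.

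The rest of the pathway was read from lists of 69 further genes, of which 66 had an entry and 56 were tested between the areas of stage 2. There 5 rose and 3 fell, 14.3% of those tested against the 16.5% of all genes, with a median log2 fold change of 0.07. Among 9 tested genes of latency and activation, FURIN, a protease that cleaves the TGF-beta precursor, was lower in group 2b (257 ± 68.5 against 489 ± 56.9, log2 fold change -0.93, adjusted p = 0.00244), and 8 did not pass. Among 11 tested SMAD partners and regulators, NEDD4L, a ubiquitin ligase that targets activated SMAD2 and SMAD3, was higher (89.1 ± 13.1 against 22.9 ± 10.8, log2 fold change 1.94, adjusted p = 0.000631), and 10 did not pass. SMAD5, a carrier of BMP signals, was higher as 1 of 3 other SMADs tested (282 ± 29.9 against 191 ± 31.5, log2 fold change 0.56, adjusted p = 0.0119).

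Genes known to respond to TGF-beta went both ways in the same comparison, with 3 of 16 higher and 2 lower. Of all genes tested, 8.9% were called higher and 7.64% lower. FN1, the matrix protein fibronectin, was higher at 2345 ± 450 against 1179 ± 394 (log2 fold change 0.99, adjusted p = 0.00466), and JUNB, an AP-1 transcription factor, at 942 ± 123 against 588 ± 197 (0.68, adjusted p = 0.0338). ID1, a BMP-responsive inhibitor of basic helix-loop-helix factors, was lower at 50.4 ± 38.1 against 177 ± 62.0 (log2 fold change -1.81, adjusted p = 0.00468). RUNX3, a transcription factor of T cells and Langerhans cells, was lower at 535 ± 47.0 against 816 ± 118 (-0.61, adjusted p = 0.0043). The fifth gene, BHLHE40, a transcriptional repressor of lymphocytes among other cells, was named after its value was seen (0.67, adjusted p = 0.0197).

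No gene passed in the remaining lists of the area comparison. The smallest p among 7 other receptors of the superfamily was that of ACVRL1, an endothelial type I receptor (1.09, adjusted p = 0.0715). It was that of TAB1 among the 4 genes of the TAK1 branch (-0.44, adjusted p = 0.128) and of INHBA, an activin subunit, among 6 BMP and activin ligands and antagonists (0.81, adjusted p = 0.219).

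**Figure D5:**
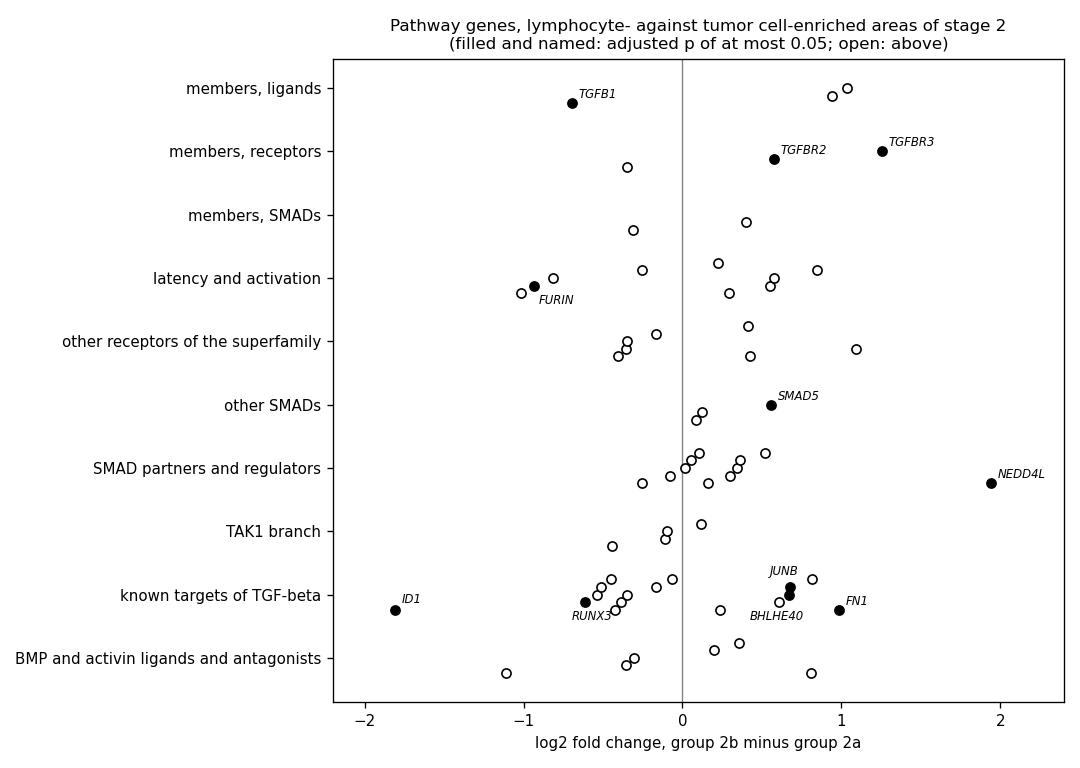
Log2 fold changes of group 2b against group 2a (horizontal axis) for the tested members and the 56 tested genes of 7 pathway lists (rows), with 1 point per gene and no meaning to the height within a row. The 11 filled, named points have an adjusted p of at most 0.05; NEDD4L lies farthest to the right at 1.94 and ID1 farthest to the left at -1.81.

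Between stages, 0 of 53 tested pathway genes passed in group 2a against group 1, where 7 had an unadjusted p under 0.05, against 17.9% of all genes, and DESeq2 called 0. The smallest p was that of PPM1A, a phosphatase of SMAD2 and SMAD3 (-0.50, adjusted p = 0.146). In the other lists the leading genes were LTBP1, which anchors latent TGF-beta to the matrix (-1.0, adjusted p = 0.202), POSTN, the matrix protein periostin (-1.06, adjusted p = 0.150), ACVR1B (-0.67, adjusted p = 0.305), TAB1 (0.40, adjusted p = 0.388), SMAD1 (-0.59, adjusted p = 0.401) and INHBA (0.86, adjusted p = 0.451).

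In group 3 against group 2b, edgeR called 0 of 59 tested pathway genes, with 8 at an unadjusted p under 0.05 against 13.1% of all genes, and DESeq2 called 1, NEDD4L. NEDD4L had 52.9 ± 7.54 normalized counts in group 3 against 89.1 ± 13.1 in group 2b with no overlap (log2 fold change -0.76, adjusted p = 0.115 in edgeR and 0.0188 in DESeq2). FST, the activin antagonist follistatin, was at 26.2 ± 11.6 against 7.93 ± 3.72 (1.70, adjusted p = 0.137), also without overlap, as was true of 2.11% of all genes. Its range was 15.0 to 39.8 in group 3 and 2.79 to 13.5 in group 2b. FST thus passed the count filter through group 3, which favors such a difference, so its values are descriptions. The leading genes of the other lists were RUNX3 (0.37, adjusted p = 0.237), LTBP4 (0.88, adjusted p = 0.356), SMAD6, an inhibitory SMAD (0.49, adjusted p = 0.589), TAB1 (-0.33, adjusted p = 0.615) and ACVR2B (0.57, adjusted p = 0.690).

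For orientation in the dog genome (assembly UU_Cfam_GSD_1.0, RefSeq annotation), TGFB1 spans chr1:113413527-113429277, TGFB2 chr38:14128921-14209014 and TGFB3 chr8:49235714-49261227. The receptors lie at chr11:56499979-56559879 (TGFBR1), chr23:14144194-14234152 (TGFBR2) and chr6:57523587-57718361 (TGFBR3). SMAD2 lies at chr7:43688637-43769813 and SMAD4 at chr1:23987158-24041139. These are the spans of whole genes, and the position of the counted 3′ reads within them was not given.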

How the data were processed

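RNA from FFPE tissue was sequenced with the QuantSeq 3′ FWD kit. Reads were trimmed by the authors (Cutadapt), mapped to UU_Cfam_GSD_1.0 (STAR), counted with featureCounts per the submitters' processing notes, and groups compared with DESeq2; versions and the handling of strand and of reads with several matches are not given in the sources used here. The authors deposited raw counts per gene and sample, and a normalized count, here of the unit signal, which is the raw count divided by the size factor of the sample (0.855 to 1.27). The authors also deposited their own mean level, log2 fold changes and p-values for 2 comparisons, which were not used.

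Raw counts were tested with the quasi-likelihood F-test of edgeR 4.0.16 (R 4.3.3, TMM factors) on the samples of the 2 groups compared, over genes where 5 or more of these samples reached a count of 10. All 8 members with an entry passed this filter in each comparison. Calls needed an adjusted p (Benjamini-Hochberg) no higher than 0.05. Fold changes on the log2 scale carry an SE derived from the test, as their size divided by the square root of the F statistic. Replicates are different dogs or pools of dogs, and groups 2a and 2b each enter 2 comparisons. Pathway lists, marker lists and members were chosen with earlier results of these data known. Named besides the members were the called genes of each pathway list, or of a list with more than 4 the 2 largest rises and 2 largest falls, the gene with the smallest p where none was called, and for each member the 3 genes with the highest Spearman's rho of log2(normalized count + 1). Alternatives were DESeq2 1.42.0, RLE factors, no count filter or a count of 10 in every sample, all 4 groups in 1 fit, a DV200 covariate, a replicate block, group 2b restricted to its pools, and the omission of each sample in turn. Scripts were tested on simulated counts. Tables were handled in Python 3.11.15 (pandas 2.3.3, numpy 2.4.6, scipy 1.17.1) and plotted with matplotlib 3.10.9. The values of 1 marker gene are not reported here.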

Additional observations from a re-analysis of the deposited data

Results flagged for a closer look

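Of 32 sets of 5 or 6 samples, 1 for each member and group, 3 held a sample that stood apart by Dixon's criterion, and chance flags about 1 set in 20. TGFBR1 in group 2a replicate 1 had 231.9 normalized counts, with the nearest sample of the group at 120.9. TGFB1 in group 2b replicate 5 had 87.4 normalized counts, with the nearest at 70.9. SMAD4 in group 2b replicate 1 had 180.2 normalized counts, with the nearest at 236.5.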

How the results depend on the processing

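Of 437 log2 fold changes of members recomputed under the alternatives, 397 kept their direction and side of the threshold, 15 passed it only under the alternative, 17 lost it and 8 turned sign; the 232 recomputed group means moved by less than 1 SD. For group 2a against group 1 they were TGFB1 at 0.0496 with DV200 as a covariate and 0.0187 without group 2a replicate 3 (-0.20 to 0.0187 over the fits without 1 sample), SMAD2 at 0.11 with DV200, and TGFB3 at 0.02 and 0.36 without group 1 replicate 3 or 4 and 0.18 and 0.12 without group 2a replicate 1 or 5 (-0.35 to 0.36). For group 2b against group 2a it was TGFBR1 at 0.0465 without group 2a replicate 1 (-0.49 to 0.0465).

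Members called in group 2a against group 1 numbered 0, but 3 with DESeq2 and with all 4 groups in 1 fit, 1 (TGFBR2) with a count of 10 in every sample, and 0 in each fit without 1 sample. All genes called there numbered 59, but 632 with DESeq2, 493 with all 4 groups, 150 with a count of 10 in every sample, 0 with DV200, 0 with the replicate block, and 0 to 103 without 1 sample (0 in 7 of 10). In group 3 against group 2b they numbered 13, but 185 with DESeq2, 8 without a filter, 2 with DV200, 0 with the block, 0 with only pooled samples, and 0 to 78 without 1 sample; DESeq2 called 1 pathway gene. The DV200 label of group 3 replicate 5 is in doubt, and the DV200 fit of this comparison rests on it. In group 2b against group 2a the 3 members became 5 with DESeq2, which called 2377 of all 11545 genes. With a count of 10 in every sample they were 5 of the 7 members tested, beside 1507 of 9028 genes. The replicate block left 1 (TGFBR3), beside 1301 of 11330 genes. Fits without 1 sample called 1 to 3 members, beside 1497 to 1967 genes. TGFB1 was also lost with only pooled samples (adjusted p = 0.0898) and TGFBR2 with DV200 (0.0531). The block left 5 of 8 pathway calls. Samples with the same replicate number came from different dogs, and the correlation of their deviations ran from -0.304 to 0.149, so the number is not a pairing. The cause of these shifts was not tested.

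Depth limits TGFB2 and TGFB3 most, since 3 of 5 samples of group 1 for TGFB2 and 2 of 5 for TGFB3 were below a count of 10.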

Other observations

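The raw counts of TGFB1 and TGFB3 were equal in group 3 replicate 1, at 77, and in group 3 replicate 3, at 113, and in no other sample.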
